A study of Mus musculus with 4 samples.

Results

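The 10 genes described here carry glucose from the blood side of the retina to exported lactate: the glucose transporter gene Slc2a1, the hexokinase genes Hk1 and Hk2, the phosphofructokinase genes Pfkl, Pfkm and Pfkp, the pyruvate kinase gene Pkm, the lactate dehydrogenase genes Ldha and Ldhb, and the lactate exporter gene Slc16a3. They were chosen by name from the 52636 genes of the table, and all 10 were present and expressed well above the minimum mean of 10 normalized counts that was required for testing. Retinal RNA of 3-week-old mice was compared between wild-type animals (WT, 2 libraries) and animals with Q344X (2 libraries), a mutation known from autosomal dominant retinitis pigmentosa, in which rods are lost first. The labels give no strain, sex, litter or number of mutant alleles for either group. The protocol lists 3 Q344X and 2 WT mice, the design text 2 of each after removals, and nothing ties a library to 1 animal, so the p-values measure only the spread between these libraries. A normalized count is a gene's read count divided by a size factor for its library. Shares, step sums and the order of the 10 genes use this count per kilobase of annotated exon unless stated otherwise. For genes outside the 10, abundance refers to the undivided normalized count.

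Photoreceptors are among the heaviest users of glucose in the body, and they turn most of it into lactate even when oxygen is plentiful, a habit known as aerobic glycolysis. GLUT1, the product of Slc2a1, brings glucose in, hexokinase traps it as a sugar phosphate, phosphofructokinase commits it to glycolysis, pyruvate kinase makes pyruvate and lactate dehydrogenase reduces pyruvate to lactate, which leaves with a proton through monocarboxylate transporters. Most of these steps can be run by several genes: hexokinase 1 is the widespread form and hexokinase 2 the form that glycolytic tissues such as muscle, tumours and photoreceptors add, and the subunits L, M and P of phosphofructokinase are named after liver, muscle and platelets.

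Several genes of this pathway are textbook targets of hypoxia-inducible factors. ACGTG is a form of the core site that these factors bind, and other forms of that core were not searched. The 250 bases before an annotated start are shown for 3 genes that fell in Q344X (Hk2, Pfkl, Slc16a3). They are also shown for 2 that were not past the threshold (Slc2a1, Ldha), with every ACGTG, read on either strand, in capitals. Sequences are from RefSeq starts on GRCm38.p6, 5′ to 3′ on the gene's strand. For each of these genes except Hk2, that start lies inside the gene span given further below.
Hk2, chr6:82774455-82774704, minus strand: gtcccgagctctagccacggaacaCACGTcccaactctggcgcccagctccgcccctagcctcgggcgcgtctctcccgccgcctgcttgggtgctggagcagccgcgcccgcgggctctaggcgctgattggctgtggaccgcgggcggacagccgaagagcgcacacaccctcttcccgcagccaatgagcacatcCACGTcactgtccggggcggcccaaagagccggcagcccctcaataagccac
Pfkl, chr10:78009808-78010057, minus strand: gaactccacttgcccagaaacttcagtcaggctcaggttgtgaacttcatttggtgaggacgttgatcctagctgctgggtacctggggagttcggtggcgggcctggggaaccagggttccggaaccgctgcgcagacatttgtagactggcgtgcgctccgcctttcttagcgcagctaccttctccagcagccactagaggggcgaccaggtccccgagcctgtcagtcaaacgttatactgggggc
Slc16a3, chr11:120948817-120949066, plus strand: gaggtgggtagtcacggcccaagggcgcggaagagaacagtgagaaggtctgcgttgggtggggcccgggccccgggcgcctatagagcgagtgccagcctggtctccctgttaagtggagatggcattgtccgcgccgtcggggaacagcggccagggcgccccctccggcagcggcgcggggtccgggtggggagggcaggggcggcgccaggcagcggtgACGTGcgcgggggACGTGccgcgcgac
Slc2a1, chr4:119108495-119108744, plus strand: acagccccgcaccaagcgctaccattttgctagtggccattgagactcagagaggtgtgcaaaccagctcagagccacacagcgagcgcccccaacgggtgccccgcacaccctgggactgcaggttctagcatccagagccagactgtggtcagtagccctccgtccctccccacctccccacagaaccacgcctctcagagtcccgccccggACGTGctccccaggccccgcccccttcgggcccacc
Ldha, chr7:46845554-46845803, plus strand: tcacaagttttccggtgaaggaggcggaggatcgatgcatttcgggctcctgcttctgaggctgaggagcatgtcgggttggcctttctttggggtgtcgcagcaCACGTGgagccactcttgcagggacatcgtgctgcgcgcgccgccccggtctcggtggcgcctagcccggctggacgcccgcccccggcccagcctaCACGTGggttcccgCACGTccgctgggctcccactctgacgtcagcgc

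The letters ACGTG stood at 2 places in the Hk2 window, at 2 in the Slc16a3 window, at 1 in the Slc2a1 window and at 0 in the Pfkl window. The Ldha window shown held 5 matches over 3 places, because CACGTG reads the same on both strands and occurs there at 2 of them. A further Ldha window, not shown, held 0. The 10 members have 16 windows in the table, since a gene with several annotated starts has several. ACGTG was in 7 of the 16 (6 members, Hk1 having it in neither of its 2) and in 16.6% of 32817 windows of the same length. The 6-letter form CACGTG was in 2 of the 16 (Pfkm and Ldha) and in 6.02% of all windows. TAATCC, the core letters bound by the photoreceptor factor CRX, was in 3 of the 16 (Pfkm, Pfkp and Ldha) and in 6.25% of all. GGGCGG, the GC box, was in 6 of the 16 and in 32.7% of all, a share near that of the members. Matches were thus found both before genes that fell and before genes that did not pass, and a match is only a run of letters in this window.

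The libraries held 18452679 to 19706573 reads in genes. The genes of a list of 10 rod markers summed to 601190 and 672434 normalized counts in WT and to 355420 and 407225 in Q344X, and all were above 0 in every library, as the label retina asks. A list of 5 lens markers (Cryaa, Cryba1, Crygs, Mip and Bfsp1) made up 0.914% and 1.07% of all normalized counts in the WT libraries and 0.889% in Q344X replicate 1, but 0.0261% in Q344X replicate 2, so that library stands apart and each result on a member, and on a step's shares and sum, is also given without it. The 5 red blood cell markers summed to 493 and 520 in WT and to 127 and 264 in Q344X. The part that lens or blood RNA has in the values below was not tested.

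Of the 10 members, 4 fell in Q344X (Hk2, Slc16a3, Pfkl and Hk1), 0 rose (also 0 at an unadjusted p under 0.05) and 6 did not pass (limma, adjusted p under 0.05 over 16833 genes). Among all tested genes 9.10% were lower and 5.46% higher by the same test. The 2 genotypes did not overlap, Q344X being lower, in 6 members, the 4 above with Pfkm and Pkm, where 31.7% of all tested genes were lower without overlap and 31.4% higher. The median log2 fold change of the 10 members was -0.46, against 0.02 over all tested genes. Without Q344X replicate 2 the same number, 4, fell.

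**Figure D1:**
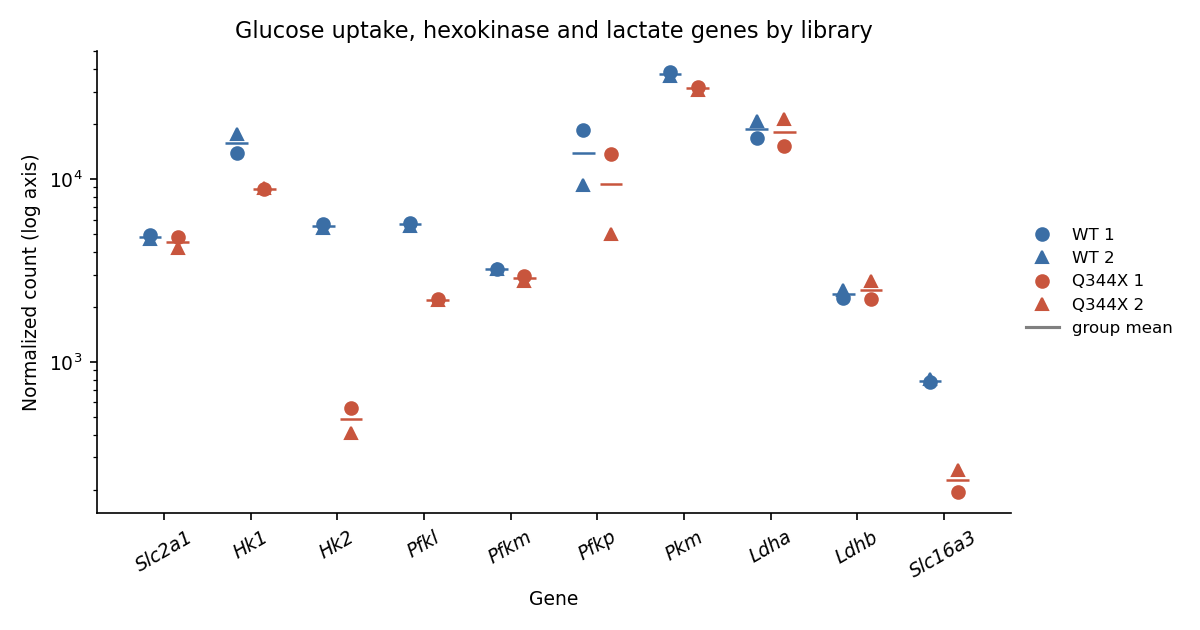
Normalized counts (log axis) of the 10 genes in each library, blue for WT and red for Q344X, circles for replicate 1 and triangles for replicate 2, with a line at each group mean. Hk2 drops from between 5382 and 5659 in WT to between 408 and 560 in Q344X, whereas the libraries of the 2 genotypes mix for Slc2a1, Pfkp, Ldha and Ldhb.

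Slc2a1 encodes GLUT1, the main glucose carrier of the retina and its pigment epithelium (ENSMUSG00000028645, chromosome 4, 119108711 to 119137983, plus strand, GRCm38). It was at 4951 and 4715 normalized counts in WT and at 4811 and 4188 in Q344X. The groups overlapped, since Q344X replicate 1 lay between the WT libraries. The log2 fold change, Q344X against WT, was -0.11 ± 0.18 (SE, n = 2 per group), with a 95% interval of -0.54 to 0.32 (adjusted p = 0.698, limma), and -0.01 without Q344X replicate 2. The interval leaves out a loss of Slc2a1 as large as that of Hk2, Slc16a3 or Pfkl.

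Hk2, the inducible hexokinase that docks on mitochondria (ENSMUSG00000000628, chromosome 6, 82725025 to 82774454, minus strand), showed the largest change of the 10. The WT libraries had 5659 and 5382 normalized counts of it, the Q344X libraries 560 and 408. Both Q344X libraries were far below both WT libraries, and the ratio of the group means was 11.4. The 95% interval of the log2 fold change ran from -4.05 to -3.00 (adjusted p = 0.00342, limma), and without Q344X replicate 2 the value was -3.30. At least 425 reads stood behind each library's value. In bulk tissue, fewer cells of a type and less RNA per cell cannot be told apart.

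Hk1, the hexokinase of most tissues (ENSMUSG00000037012, chromosome 10, 62268855 to 62379908, minus strand), was also lower. It was at 13936 and 17582 in WT and at 8795 and 8936 in Q344X. The Q344X libraries lay close together and below both WT libraries, which differed from each other by more. The ratio of means was 1.78, and the 95% interval of the log2 fold change was -1.30 to -0.34 (adjusted p = 0.0450, limma). This call was the weakest of the 4: adjusted p was 0.0967 without WT replicate 1, 0.304 without WT replicate 2, 0.0581 under quantile normalization and 0.104 with no filter on low genes, and it was 0.0255 without Q344X replicate 2.

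The unequal loss shifted the balance of the 2 hexokinase genes. Per kilobase of exon, Hk2 made up 36.7% and 30.4% of the summed Hk1 and Hk2 level in WT and 8.35% and 6.13% in Q344X. All of the Q344X shares were below all of the WT shares, with a difference of means of -26.3 percentage points (exact permutation test, two-sided p = 0.33, the smallest that 2 against 2 libraries can give, and 0.533 adjusted over 8 shares and sums). The summed level of the pair was lower in both Q344X libraries, at 1125 and 1116 normalized counts per kilobase against 2582 and 2962 in WT (log2 ratio of means -1.31, exact permutation p = 0.33, adjusted 0.533). The share of Hk2 depends on the length used. With the longest annotated transcript in place of all exons it averaged 21.6% in WT and 4.07% in Q344X, a difference in the same direction. Without Q344X replicate 2 the share difference was -25.2 percentage points and the log2 ratio of the sums -1.30.

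**Figure D2:**
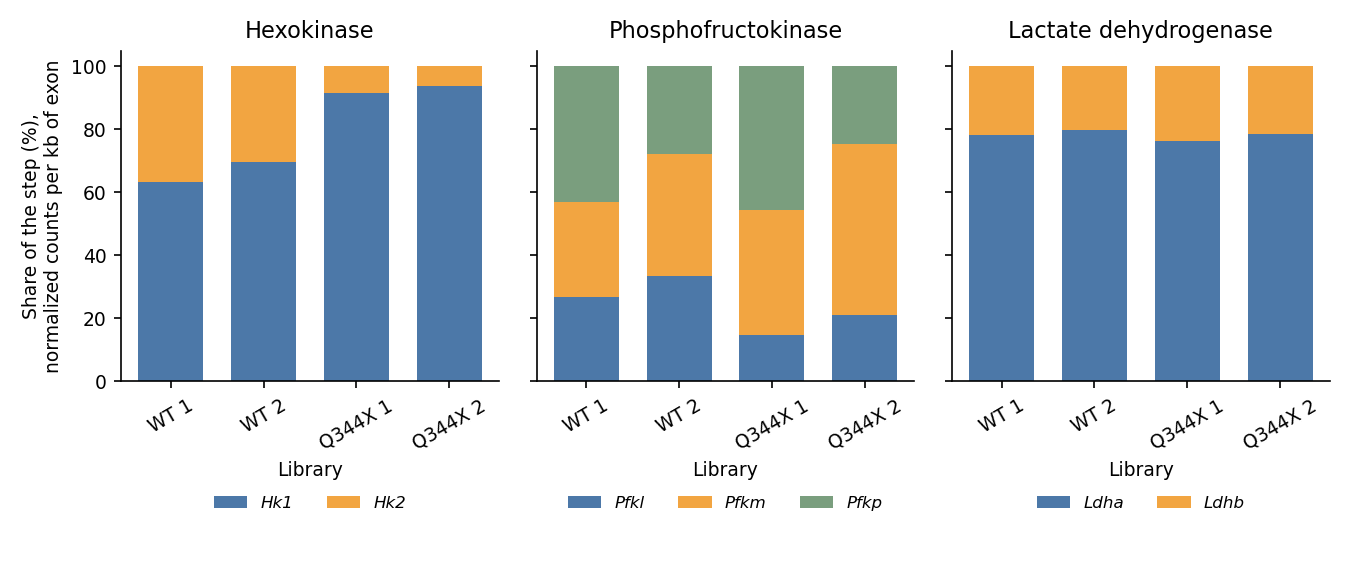
Share (%) of each gene in the summed level of its step, from normalized counts per kilobase of exon, in the 4 libraries. The orange Hk2 part shrinks from 36.7% and 30.4% in WT to 8.35% and 6.13% in Q344X, and the Ldha part stays between 76.3% and 79.9% in all 4 libraries.

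The other genes of the hexokinase list moved both ways. Of 9 tested, the 2 members included, 1 rose and 3 fell (list median -0.16). Gckr, which encodes a regulatory protein known from liver, was at 2534 and 1662 in WT and at 403 and 229 in Q344X. It fell with a log2 fold change of -2.75 ± 0.34 (SE, adjusted p = 0.0101, limma). Hkdc1, which encodes a further hexokinase-like protein, rose from 230 and 201 to 553 and 417 (1.158, adjusted p = 0.0284, limma, or 0.0994 without WT replicate 2). Vdac1 and Vdac2, the mitochondrial outer membrane channels to which hexokinases bind, had 0.27 and 0.32, neither past the threshold.

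Phosphofructokinase genes behaved in 3 different ways. Pfkl, the liver-type subunit (ENSMUSG00000020277, chromosome 10, 77986947 to 78010083, minus strand), was at 5778 and 5541 in WT and at 2202 and 2170 in Q344X. Replicates differed by far less than the genotypes, and the ratio of means was 2.59. The 95% interval of the log2 fold change was -1.78 to -0.97 (adjusted p = 0.00964, limma), and the value was -1.36 without Q344X replicate 2.

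Pfkm, the muscle-type subunit (ENSMUSG00000033065, chromosome 15, 98092589 to 98132451, plus strand), was at 3219 and 3233 in WT and at 2954 and 2774 in Q344X. Both Q344X values were slightly lower than both WT values, yet the gene did not pass (log2 fold change -0.17 ± 0.17, SE, 95% interval -0.58 to 0.23, adjusted p = 0.495, limma, and -0.13 without Q344X replicate 2). Another annotated gene on the same strand, Gm26513, covers 10.2% of the exon bases of Pfkm.

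Pfkp, the platelet-type subunit (ENSMUSG00000021196, chromosome 13, 6579768 to 6648777, minus strand), varied within each genotype. It was at 18572 and 9220 in WT replicates 1 and 2 and at 13635 and 5033 in Q344X replicates 1 and 2. The genotypes overlapped, and the 2 libraries of a genotype differed by 1.01 in WT and by 1.44 in Q344X on the log2 scale. Differences at least that large in both genotypes were found in 0.873% of the tested genes (147 of 16833), and the medians over all tested genes were 0.24 and 0.35. The log2 fold change was -0.66 ± 0.54 (SE, 95% interval -1.98 to 0.66, adjusted p = 0.424, limma). Its value rests on which mutant library is kept, being -1.38 (adjusted p = 0.00147) without Q344X replicate 1 and 0.06 (adjusted p = 0.920) without Q344X replicate 2. Q344X replicate 2, the lowest of the 4 libraries for Pfkp, had the smallest lens marker share and WT replicate 2, the next lowest, the largest. The part of lens RNA in the Pfkp values was not tested. Pitrm1, a gene on the opposite strand, covers 5.58% of the exon bases of Pfkp. It was at 909 and 562 in WT and at 811 and 480 in Q344X, and its part in the Pfkp value was not tested.

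Among the phosphofructokinase genes the share of Pfkl per kilobase was 26.9% and 33.4% in WT and 14.8% and 21.2% in Q344X. The share of Pfkm was 29.97% and 38.9% in WT and 39.6% and 54.2% in Q344X, and Pfkp held 43.1% and 27.7% in WT and 45.6% and 24.5% in Q344X. The Pfkl shares were lower and the Pfkm shares higher in Q344X without overlap, by -12.1 and 12.5 percentage points (exact permutation p = 0.33 each, adjusted 0.533), and both inherit the swings of Pfkp. The Pfkm difference was 5.17 without Q344X replicate 2, 7.99 without WT replicate 1 and 19.8 without Q344X replicate 1, and the Pfkl difference was -15.4 without Q344X replicate 2. With no division by length the genotypes overlapped for both genes, Pfkm having 11.7% and 17.97% in WT and 15.7% and 27.8% in Q344X (exact permutation p = 0.67 for each gene). The Pfkp difference of -0.33 percentage points turned to 10.2 without Q344X replicate 2. The ratio of Pfkl to Pfkm, which does not involve Pfkp, was 0.898 and 0.857 in WT and 0.373 and 0.391 in Q344X. The 3 genes together were at 3215 and 2486 per kilobase in WT and at 2232 and 1531 in Q344X (log2 ratio of means -0.60, exact permutation p = 0.33, adjusted 0.533). That ratio was -0.35 without Q344X replicate 2 and -0.90 without Q344X replicate 1. With no division by length the sums overlapped, at 27568 and 17994 in WT and 18791 and 9977 in Q344X (exact permutation p = 0.67).

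The rest of the phosphofructokinase list holds the bifunctional enzymes that make and break its strongest activator, a fructose bisphosphate, and the bisphosphatases that run the step backwards. Of 8 tested, members included, 2 fell and 0 rose (list median -0.25). Besides Pfkl this was Pfkfb3, a bifunctional enzyme that favours the activator, at 889 and 874 in WT and 551 and 427 in Q344X (log2 fold change -0.86, adjusted p = 0.0435, limma). That call was lost under 75th percentile scaling (adjusted p = 0.0514, limma) and with no filter on low genes (0.0943). It was also lost without WT replicate 1, WT replicate 2 or Q344X replicate 2, where the log2 fold change was -0.85, -0.87 and -0.68. Pfkfb2, the abundant one of the family, had -0.10 and Tigar, a fructose bisphosphatase induced by p53, had -0.28, neither past the threshold.

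Pkm, which encodes pyruvate kinases M1 and M2 through 2 exclusive exons that gene-level values do not separate (ENSMUSG00000032294, chromosome 9, 59656368 to 59679375, plus strand), was the most abundant member. It was at 38589 and 36585 in WT and at 32003 and 30843 in Q344X. The Q344X libraries were both lower, but the difference did not pass (log2 fold change -0.26 ± 0.18, SE, 95% interval -0.71 to 0.19, adjusted p = 0.357, limma, and -0.23 without Q344X replicate 2). Under quantile normalization the sign turned, to 0.02. A provisional transcript model on the same strand, Gm49759, covers 15.3% of the exon bases of Pkm, so some reads may have been left out or assigned to it.

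The remaining glycolytic enzymes held no call in the main fit. Of 13 tested in that list, Pkm included, 0 rose and 0 fell (limma, 5 with an unadjusted p under 0.05), and the list median was -0.30. After a correction for gene length and GC content 1 fell and 0 rose. Without Q344X replicate 2 the list median was -0.27. Calls in both directions appeared when either Q344X library was left out. Aldoa, an aldolase, was at 27667 and 26513 in WT and at 18184 and 18015 in Q344X (log2 fold change -0.58, adjusted p = 0.0769). Gapdh, Eno1 and Tpi1, the next by abundance, had -0.30, 0.18 and -0.67. The muscle enolase Eno3 had 0.64 (adjusted p = 0.0632), which misses the threshold.

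Lactate dehydrogenase genes showed no call. Ldha, the form that favours lactate production (ENSMUSG00000063229, chromosome 7, 46841475 to 46855627, plus strand), was at 16848 and 20686 in WT and at 15062 and 21215 in Q344X. Ldhb, the form that favours pyruvate production (ENSMUSG00000030246, chromosome 6, 142490249 to 142507957, minus strand), was at 2227 and 2475 in WT and at 2218 and 2753 in Q344X. In both genes the Q344X libraries enclosed the WT libraries. The log2 fold changes were -0.06 ± 0.24 (SE, 95% interval -0.65 to 0.53, adjusted p = 0.873, limma) for Ldha and 0.07 ± 0.19 (-0.40 to 0.55, adjusted p = 0.811) for Ldhb. Without Q344X replicate 2 they were -0.31 and -0.08, neither past the threshold, and both signs turned under quantile normalization (0.09 and -0.01).

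The balance of the 2 genes was similar in all 4 libraries. Ldha made up 78.2% and 79.9% of their summed level per kilobase in WT and 76.3% and 78.5% in Q344X, a difference of means of -1.62 percentage points (exact permutation p = 0.67, adjusted 0.889). The groups overlapped, and the largest gap between any 2 libraries was small beside the shift seen for Hk2. Their summed level was 6508 and 7826 per kilobase in WT and 5963 and 8163 in Q344X. Without Q344X replicate 2 the share difference was -2.72 percentage points and the log2 ratio of the sums -0.27.

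Slc16a3 encodes MCT4, a monocarboxylate transporter that exports lactate from glycolytic cells (ENSMUSG00000025161, chromosome 11, 120948480 to 120960868, plus strand). It was the rarest member, at 772 and 801 normalized counts in WT and at 194 and 256 in Q344X. The WT libraries were nearly equal and the Q344X libraries both far lower, with a ratio of means of 3.49. The 95% interval of the log2 fold change was -2.34 to -1.29 (adjusted p = 0.00939, limma), and without Q344X replicate 2 the value was -2.01. At least 196 reads stood behind each value.

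The other lactate transporter genes gave other values. Of 10 tested genes in the list of lactate dehydrogenases and transporters, 1 rose and 1 fell, the latter being Slc16a3 (list median -0.18). Slc16a1, which encodes the widespread transporter MCT1, was at 5547 and 6039 in WT and at 4470 and 4879 in Q344X (log2 fold change -0.31, adjusted p = 0.254, limma). Slc16a8, which encodes MCT3 of the pigment epithelium, rose from 122 and 164 to 518 and 832 (2.21 ± 0.30, SE, adjusted p = 0.0124). Bsg, encoding basigin, the partner that carries MCT1, MCT3 and MCT4 to the cell surface, had -0.02 and Nptn, encoding its relative neuroplastin, had -0.03, neither past the threshold.

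Slc16a8 is itself one of 8 pigment epithelium markers. The other 7 summed to 3945 and 4312 in WT and to 4862 and 6415 in Q344X, with 0 of them at 0 in any library. Of 7 tested markers 2 were higher, Slc16a8 and Rpe65, the visual cycle isomerase gene (log2 fold change 1.19, adjusted p = 0.0197, limma, or 0.0697 without WT replicate 2), and 0 were lower. Lrat, Ttr, Mlana and Rgr had 0.82, 0.40, 0.28 and 0.25 and Tyrp1 had -0.58, none past the threshold, and Best1 was too low to be tested. Their part in the Slc16a8 value was not tested.

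**Figure D3:**
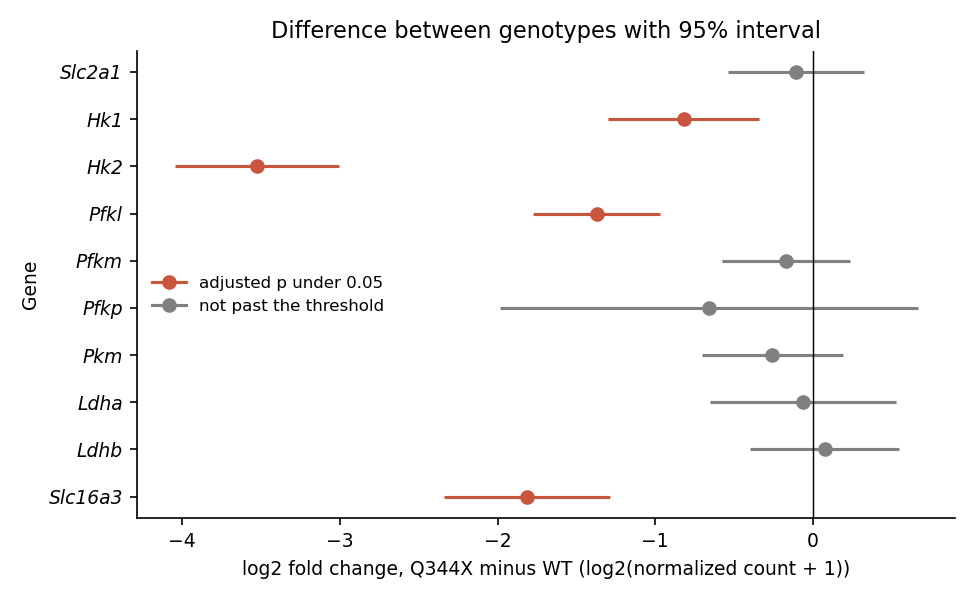
log2 fold change of the 10 genes, Q344X minus WT, on the scale of log2(normalized count + 1), with 95% intervals from limma and red for adjusted p under 0.05. The intervals of Hk2, Slc16a3, Pfkl and Hk1 lie below 0 and those of the other 6 include it, the widest being that of Pfkp (-1.98 to 0.66).

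Set side by side per kilobase, the order of the levels changed in the middle. In WT it was Pkm (7516 ± 283 normalized counts per kilobase, SD, n = 2), Ldha (5669.9 ± 819.9), Hk1 (1847 ± 302), Ldhb (1497 ± 112), Slc2a1 (1379 ± 47.6), Pfkp (1037 ± 493), Pfkm (966 ± 3.14), Hk2 (925 ± 32.9), Pfkl (848 ± 25.2) and Slc16a3 (148 ± 3.92). Hk1 followed Pkm and Ldha in WT and fell behind Ldhb (1583 ± 241) and Slc2a1 (1283 ± 126) in Q344X, where it was at 1039 ± 11.7. Hk2, which stood between Pfkm and Pfkl in WT, was at 81.1 ± 18.1 in Q344X, next to Slc16a3 at 42.3 ± 8.27. The spread of Pfkp (mean ± SD) covers the mean levels of Ldhb, Slc2a1, Pfkm, Hk2 and Pfkl in WT and of Hk1, Pfkm and Pfkl in Q344X, so its rank is not settled by these libraries.

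Markers of retinal cell types moved both ways. Of 10 rod markers 2 fell and 0 rose (median -0.55), Gnat1 and Pde6a, whereas Sag and Cnga1 both had -0.04, not past the threshold. Of 8 cone markers 4 fell and 0 rose (median -0.95), and of 8 Müller glia markers 3 fell and 0 rose (median -0.23). With either WT library left out the cone count was 2 and the Müller glia count 1, Gnat2, Opn1sw, Aqp4 and Kcnj10 losing their calls, and without Q344X replicate 1 the rod count was 4. Of 7 ganglion cell markers 2 rose (Sncg and Isl2) and 0 fell (median 0.78). The median was 0.64 without WT replicate 1 and 1.11 without Q344X replicate 1. The number that rose also moved with the library left out. The median of 7 bipolar cell markers was 0.38, and Isl1 among them rose (log2 fold change 1.60, adjusted p = 0.0153, limma). Of 3 astrocyte markers 1 rose (Pax2, not past the threshold without WT replicate 2 or Q344X replicate 2), and the median of 6 endothelial markers, all short of the threshold, was 0.54. Hk2, at -3.53, lay below the value of every rod, cone and Müller glia marker in these lists, of which the lowest was Pde6h at -2.59. The part of these cell types in the members' values was not tested.

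Other routes of glucose and pyruvate handling gave a mixed picture. Over the 118 tested pathway genes outside the 10, 8 (6.78%) were lower and 10 (8.47%) higher, shares near the 9.10% and 5.46% of all genes, and the median log2 fold change was 0.07. Of 10 tested glucose transporters, Slc2a1 included, 2 rose and 0 fell (list median 0.48). With the length and GC correction 2 rose and 2 fell (list median 0.43). Slc2a4, the insulin-regulated carrier GLUT4, rose from 29.1 and 22.1 to 102 and 119.97 (log2 fold change 2.08, adjusted p = 0.0136, limma), and Slc5a2, a sodium-coupled carrier, had a log2 fold change of 1.96 (adjusted p = 0.0190). Slc2a3, the neuronal carrier GLUT3, had -0.66 (adjusted p = 0.0723), which misses the threshold.

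Genes of pyruvate entry into mitochondria held few calls. Of 14 tested, 2 fell and 0 rose (median 0.18). Pdp2, a phosphatase that activates pyruvate dehydrogenase, was at 665 and 608 in WT and at 241 and 209 in Q344X (log2 fold change -1.50, adjusted p = 0.0111, limma). Pdk1, a kinase that inactivates the same enzyme, was at 1419.5 and 1312 in WT and at 806 and 768 in Q344X and fell by 0.79 on the log2 scale (adjusted p = 0.0358, but 0.289 without WT replicate 1 and 0.174 without WT replicate 2). Pdhb and Dld, which encode subunits of the pyruvate dehydrogenase complex, had 0.54 and 0.17, neither past the threshold.

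Of 20 regulators of glycolysis, 3 rose and 1 fell (median 0.08). Txnip, a suppressor of glucose uptake that drives GLUT1 into the cell, rose from 340 and 299.8 to 1789 and 1507 (log2 fold change 2.36 ± 0.19, SE, adjusted p = 0.00513, limma), and its relative Arrdc4 had 1.15 (adjusted p = 0.0296, or 0.129 without WT replicate 2). Mycn, a MYC family factor, had 1.162 (adjusted p = 0.0284, or 0.0958 without WT replicate 1). Nxnl1, which encodes the rod-derived cone viability factor, a secreted protein known to speed glucose entry into cones through basigin and GLUT1, fell from 6651 and 7667 to 1217 and 1530 (-2.39 ± 0.20, adjusted p = 0.00516). Hif1a, the oxygen-regulated subunit, had 0.09 ± 0.17 and did not pass.

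**Figure D4:**
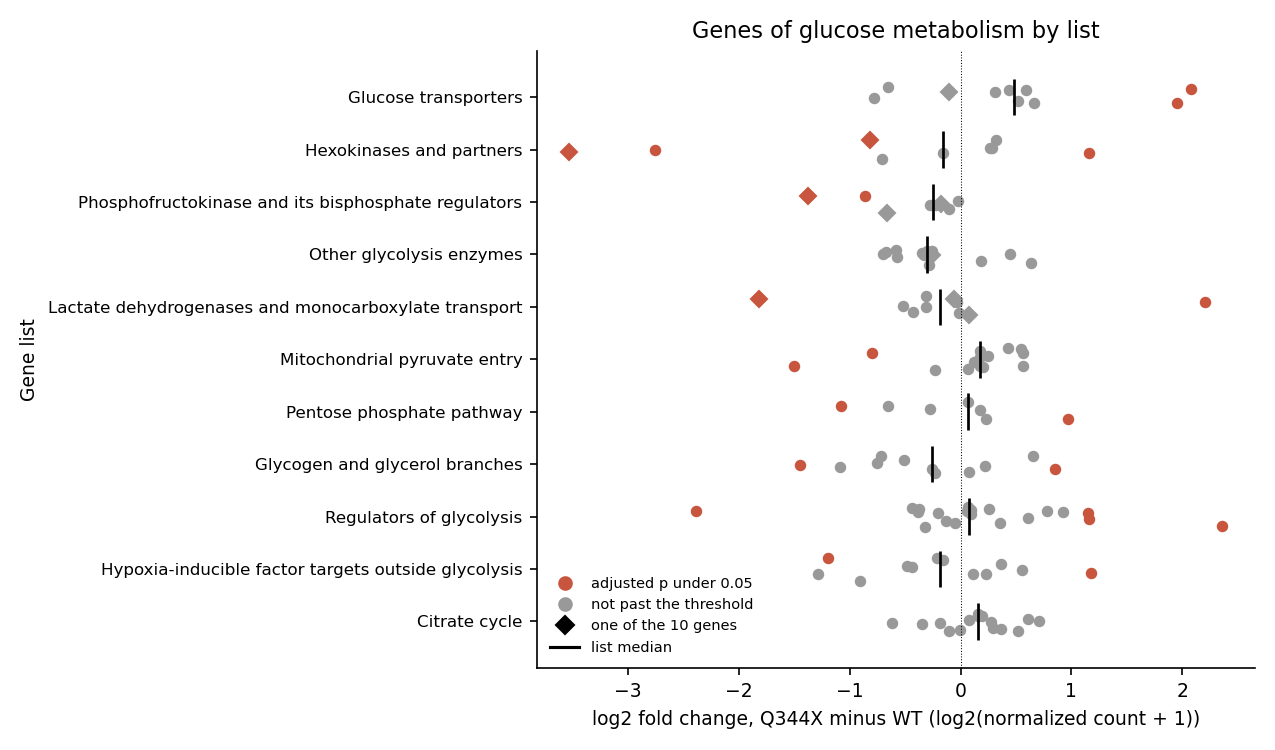
log2 fold change, Q344X minus WT, of each tested gene in 11 lists of glucose metabolism, diamonds for the 10 genes described here, red for adjusted p under 0.05 and a black bar at the list median. Calls sit at both ends: Hk2 and Gckr on the low side, Txnip and Slc16a8 on the high side, and the 13 other glycolysis enzymes and 15 citrate cycle genes hold no red point.

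By Euclidean distance of log2 values centred over the 4 libraries, the protein-coding genes nearest to Hk2 among 12446 were Trim17 (distance 0.22), Rtkn2 (0.25), Alpk2 (0.35) and Syne3 (0.35). Their log2 fold changes ran from -3.76 for Rtkn2 to -3.22 for Syne3. The nearest to Slc2a1 were Polr3k, Rsbn1, Txlna and Tmem214, at distances of 0.02 to 0.03. With 4 libraries such likeness is a description only.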

How the data were processed

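Polyadenylated RNA from retinas was sequenced as directional libraries on an Illumina HiSeq instrument, per the labels' protocols, in 2 WT and 2 Q344X libraries. The deposited values are a normalized signal: for every gene, the authors' count after division by the library's size factor (0.962, 0.997, 1.01 and 1.04 in the order WT replicates 1 and 2, Q344X replicates 1 and 2). The submitters' processing notes name FastQC, Trim Galore 0.4.4, STAR, featureCounts, DESeq2 1.16.1 and the build mm10, with no roles. The annotation and strand setting of the counting, not given in the sources used here, bear on genes that overlap. Values above 0 were multiples of the smallest value in their column (100% within 0.1 of a whole number), but for 2 columns where 1 read is worth close to 1 this did not pass a unit check, so no count model was fitted.

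Symbols, positions and lengths are from GENCODE M21 (GRCm38, that is mm10), and 52403 of 52636 genes matched. One listed symbol, Aldoa, had 2 genes, and the higher was used. Genes with a mean of at least 10 were tested (16833) with limma 3.58.1 in R 4.3.3: genotype as the 1 term of a linear model for log2(normalized count + 1), variances moderated with a trend (2 residual and 3.90 prior degrees of freedom), two-sided, Benjamini-Hochberg over all tested genes, threshold 0.05. Fold changes on this scale understate the change of low genes. Intervals cover 95%. Shares and sums used normalized counts per kilobase (1000 bases) of the union of exons, with an exact permutation test over libraries.

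The 10 members and the lists (11 of pathways, 15 of cell markers) were chosen with earlier results of these data known. Genes outside the members were named by a rule: up to 4 per list, called genes in order of the size of their change and then others in order of their mean. Eno3 and Hif1a were added after their values were seen, as were the cell markers named, and some genes picked by the rule are left out here. For Hk2 and Slc2a1 the 4 nearest protein-coding genes with a mean of at least 50 were taken. Each result was recomputed with a pseudocount of 0.5 or 5, with every gene above 0 or only those with a mean of at least 50, after 75th percentile scaling or quantile normalization, with robust moderation, with a loess correction for gene length and GC content, with other lengths for the shares, and without each library in turn.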

Additional observations from a re-analysis of the deposited data

How the results depend on the processing

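Hk2, Slc16a3 and Pfkl stayed past the threshold in all 12 alternatives, and Hk1 lost its call in 4 of them, given above. The number of members that fell was 3 to 5 and the number that rose was 0 throughout with 1 library left out, 5 being reached without Q344X replicate 1 through Pfkp. Of the other pathway genes (8 lower, 10 higher), 2 were lower and 1 higher with no filter and 13 were lower with the length and GC correction. Those that kept their call with no filter were Pdp2, Nxnl1 and Txnip. The loss of the other calls in that setting is not repeated for each gene above. Leaving out 1 library gave 5 to 18 lower and 6 to 16 higher. The most of both came without Q344X replicate 1, the fewest lower genes without WT replicate 1 and the fewest higher ones with either WT library left out. Testing every gene above 0 raises the number of tests, and the cause of the other shifts was not tested.

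Some signs turned among members with no call: under quantile normalization Pkm turned to 0.020, Ldha to 0.086 and Ldhb to -0.0089. With 1 library left out Pfkp ran from -1.38 to 0.059, Ldha from -0.31 to 0.18 and Ldhb from -0.082 to 0.23. The share difference of Pfkp (-0.33 percentage points) turned to 2.20 with no division by length, to 1.56 with the longest transcript and, with 1 library left out, ran from -10.9 to 10.2. The log2 ratio of summed lactate dehydrogenase levels (-0.02) ran from -0.27 to 0.19 with 1 library left out. The other shares and sums kept their direction in all 6 alternatives, though their size moved, as given above for the phosphofructokinase genes. Count models (edgeR, DESeq2) were not run, because the recovered reads did not pass the unit check in every library. No paired analysis was possible because the labels number no replicates. The replicate numbers used here follow the order of the library names within each genotype. At least 196 reads stood behind each member's value in each library.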

Other observations

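Side branches of glucose metabolism held single calls in each direction. Of 7 pentose phosphate genes, Pgls, encoding the lactonase of the oxidative arm, rose from 400.4 and 385 to 703 and 841 (log2 fold change 0.97, adjusted p = 0.0288, limma), and Rpe, encoding the ribulose phosphate epimerase, fell by 1.08 on the log2 scale (adjusted p = 0.0255). Pgls lost its call with either WT library left out (0.113 and 0.137) and Rpe without WT replicate 2 (0.122). Tkt and Taldo1, the most abundant of the rest, had 0.18 and 0.07. Of 11 glycogen and glycerol genes, Gys1, the muscle-type glycogen synthase, fell from 343 and 289.8 to 155 and 84.5 (-1.45, adjusted p = 0.0398, or 0.0506 under quantile normalization), and Pgm2, a phosphoglucomutase, rose (0.85, adjusted p = 0.0429, or 0.186 and 0.246 with either WT library left out). The glycogen phosphorylase Pygb and the phosphoglucomutase Pgm1 had -0.23 and 0.66, neither past the threshold.

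Of 12 tested targets of hypoxia-inducible factors outside glycolysis, 1 rose and 1 fell (median -0.19). Ndrg1, a stress-response gene, was at 5835 and 7047 in WT and at 14694 and 14356 in Q344X (1.18, adjusted p = 0.0177, limma), and P4ha1, a collagen prolyl hydroxylase subunit, at 1981 and 1703 against 878 and 732 (-1.19, adjusted p = 0.0187). Each lost its call without WT replicate 1 (0.0747 and 0.0717). Bnip3l, a mitophagy receptor gene, had 0.37 and Ddit4, encoding an mTOR inhibitor, -0.16, neither past the threshold. Of 15 citrate cycle genes 0 rose and 0 fell (limma, 4 with an unadjusted p under 0.05, median 0.16), and Mdh1, Sdha and Mdh2, among the most abundant, had 0.16, -0.35 and 0.60. With the length and GC correction 2 of the 15 rose and 0 fell.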
